A study of Arabidopsis thaliana with 12 samples.

Results

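The genes described here are 9 of the 33602 Arabidopsis genes counted in each library, chosen by locus as the core of ethylene signalling around the F-box proteins EBF1 and EBF2. They are EBF1 (AT2G25490), EBF2 (AT5G25350), ETP1 (AT3G18980), ETP2 (AT3G18910), EIN2 (AT5G03280), EIN3 (AT3G20770), EIL1 (AT2G27050), CTR1 (AT5G03730) and ERF1 (AT3G23240). RNA-seq had been made from floral buds and from open flowers of Arabidopsis thaliana in 6 groups of 2 libraries. The ask1 plants carried a Ds transposon insertion in ASK1, which encodes a SKP1-like adaptor of SCF ubiquitin ligases. One control carried the wild-type allele and is called ASK1 WT, the other was Col-0, and every library, ask1 included, had the strain label Col-0. The labels used here do not say how the ASK1 WT plants were obtained, how many ask1 lines were used or whether plants were pooled. All plants grew with 16 h of light at 21 °C and 8 h of dark at 19 °C. RNA came from 10 to 50 mg of tissue of primary inflorescences, taken 5 h after dawn.

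Ethylene is a gaseous hormone that in flowers is best known for its part in petal senescence and floral organ abscission. Without ethylene, its receptors keep the kinase CTR1 active, and CTR1 holds back the membrane protein EIN2. When ethylene binds, the C-terminal end of EIN2 reaches the nucleus and the transcription factors EIN3 and EIL1 accumulate and switch on targets such as ERF1. EBF1 and EBF2 are the F-box subunits of SCF complexes that mark EIN3 and EIL1 for degradation, and ETP1 and ETP2 are F-box proteins that act on EIN2. ASK1 links F-box proteins to the cullin CUL1, and 4 of the 9 genes encode F-box proteins. RNA was measured here and protein was not.

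Libraries held 13780265 to 23426466 counts in genes. ASK1 stood at 10.09 and 29.1 CPM (counts scaled to library size by TMM) in ask1 buds and 51.0 and 29.6 CPM in ask1 open flowers, against 247 to 310.3 CPM in the 8 control libraries. The ask1 group differed from both controls in ASK1 in each tissue, by log2 fold changes of -3.68 and -3.72 (buds) and -2.87 and -2.94 (open flowers). For the SCF partners ASK2 and CUL1 none of the 4 tests of ask1 against a control passed, with log2 fold changes between -0.33 and 0.40. RBX1, the RING subunit of these ligases, is named because of its values and not by the rule. It read 104.7 and 66.7 CPM in ask1 open flowers against 54.4 to 61.4 CPM in control open flowers, and rose there by 0.63 (adjusted p = 0.0212) and 0.53 (adjusted p = 0.0464) on the log2 scale against ASK1 WT and Col-0 (edgeR). With ask1 open-flower replicate 1 left out, RBX1 stood at 0.21 (adjusted p = 0.0790) and 0.11 (adjusted p = 0.389). Its rise was also lost without any 1 of the 4 control open-flower libraries, and against Col-0 without any 1 bud library. A pair of features of the libraries touches the results below. First, ask1 open-flower replicate 1 had counts that fell with exon length (rank correlation -0.468 between exon length and the log2 difference from the Col-0 mean of the tissue), while the other 11 libraries lay between -0.0798 and 0.0872. Second, pollen markers were low in ask1, where 11 of them summed to 108 and 323 CPM in buds against 3211 to 3608 CPM in control buds, and to 842 and 899 CPM against 6668 to 8216 CPM in open flowers. The part of either in the results was not tested. Where a library is left out, its group is 1 library. The p-values of that fit then rest on the spread of the other groups. In bulk tissue, fewer cells of a type and less RNA per cell cannot be told apart. All 5 floral organ identity markers were detected in every library, but the levels of some differed in ask1. In buds the petal and stamen identity gene AP3 fell against ASK1 WT (-0.57) and Col-0 (-0.47), and PI fell against ASK1 WT (-0.50). In open flowers AP1 rose against both (0.95 and 0.65) and PI against ASK1 WT (0.55). Of these 6 calls, AP1 against ASK1 WT passed without any 1 of the 12 libraries, and each of the others was lost without at least 1 (PI in open flowers without ask1 open-flower replicate 1, adjusted p = 0.0643, edgeR). The 5 summed to 808 and 606 CPM in ask1 open flowers against 541 to 602 CPM in control open flowers, and to 869 and 854 CPM in ask1 buds against 877 to 925 CPM in control buds. The sum of 13 tapetum markers was 3638 and 3660 CPM in ask1 buds against 6237 to 8300 CPM in control buds, and 14.1 to 18.4 CPM in all open flowers, where 4 to 7 of them were at 0. In buds GRP17, EXL4 and EXL6 fell against both controls and 10 did not pass against either, beside 17.0% (ASK1 WT) and 14.1% (Col-0) of all genes lower. The median log2 fold change of the 13 was -0.08 against ASK1 WT and 0.03 against Col-0, beside -0.05 over all genes in both. The lower sum is thus no result about the tapetum markers as a set.

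All 9 genes passed the filter on low counts. ERF1 passed it through open flowers alone, so its difference between tissues was built into its selection. Levels can be compared between genes only per length, as FPKM, the CPM per kilobase of exon. In the 4 control bud libraries EIN3 had the highest median level at 63.4 FPKM (61.1 to 68.9), followed by EBF1 at 56.9 FPKM (54.9 to 59.6). CTR1 at 25.1, EIN2 at 24.0, ETP1 at 21.2 and EBF2 at 20.9 FPKM formed a middle group in which CTR1, EIN2 and ETP1 had overlapping ranges, as had ETP1 and EBF2. EIL1 at 15.4 FPKM and ETP2 at 7.58 FPKM were lower, and ERF1 had a median of 0 (highest library 0.0567 FPKM). In control open flowers EIN3 was at 122 FPKM (119 to 128). EBF2 at 62.8 FPKM (45.5 to 69.2) and EBF1 at 58.2 FPKM (48.7 to 64.4) did not differ beyond their spread, nor did CTR1 at 30.5, EIN2 at 28.4 and EIL1 at 28.3 FPKM. ETP1 was at 18.9, ETP2 at 5.70 and ERF1 at 1.02 FPKM.

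**Figure D1:**
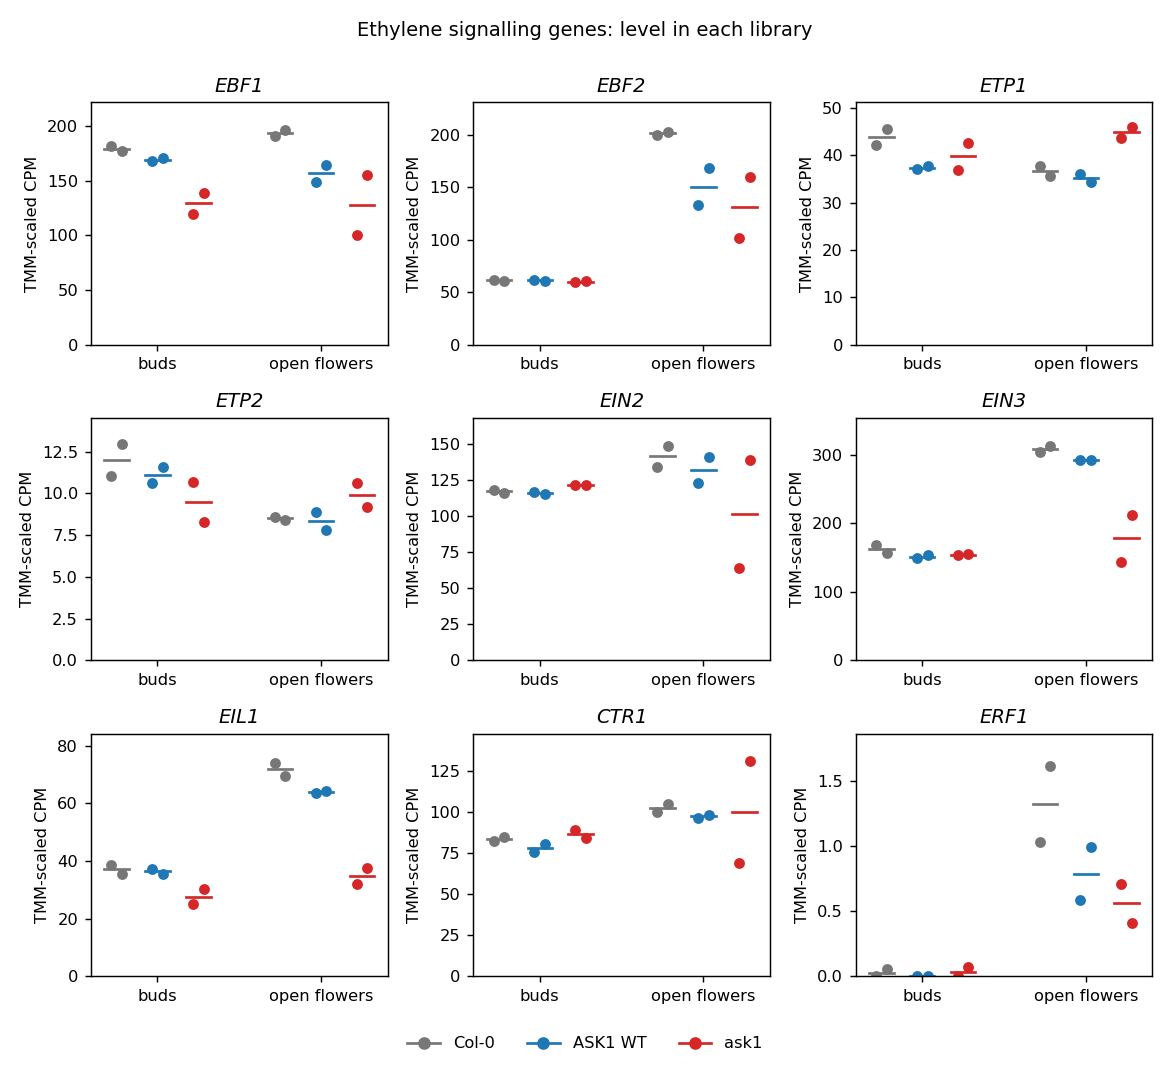
TMM-scaled CPM (y axis, from 0, own scale per panel) of each of the 9 genes in buds and open flowers, with 1 point per library, 2 per group, and a line at the group mean. EIN3 and EIL1 in ask1 open flowers lie below all 4 control open-flower libraries, and EBF2, EIN3 and EIL1 are higher in control open flowers than in control buds.

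The first question was whether loss of ASK1 altered the RNA of these genes. In open flowers EIN3 and EIL1 were lower in ask1 than in both controls. In buds EIL1 was slightly lower and no other gene passed. EBF1 and EBF2 fell in ask1 open flowers against Col-0 and did not pass against ASK1 WT. Against ASK1 WT, 1 of the 9 fell and none rose in buds, where 25.9% of all 21890 tested genes passed (8.84% higher and 17.0% lower). In open flowers 2 fell and 1 rose, where 30.0% passed (14.1% higher and 15.9% lower). Against Col-0, 1 fell in buds, where 21.1% passed (7.04% higher and 14.1% lower), and 4 fell in open flowers, where 27.2% passed (12.9% higher and 14.3% lower). Apart from the 4 falls against Col-0 these shares are near or below the background, and the counts are no result about ethylene genes. The median log2 fold change of the 9 in open flowers was -0.30 against ASK1 WT and -0.60 against Col-0, beside 0.01 over all genes in both. Without ask1 open-flower replicate 1 the middle value of the 9 was 0.02 (EIN2) against ASK1 WT and -0.38 (EBF1) against Col-0. The lower median against ASK1 WT thus rested on that library. Each test was edgeR's quasi-likelihood test, with p-values adjusted across the whole table (Benjamini-Hochberg) and called under 0.05. Both sets of comparisons share the ask1 libraries. The labels do not say that the 2 libraries of a group came from separate plants, so p-values measure the spread between these libraries.

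**Figure D2:**
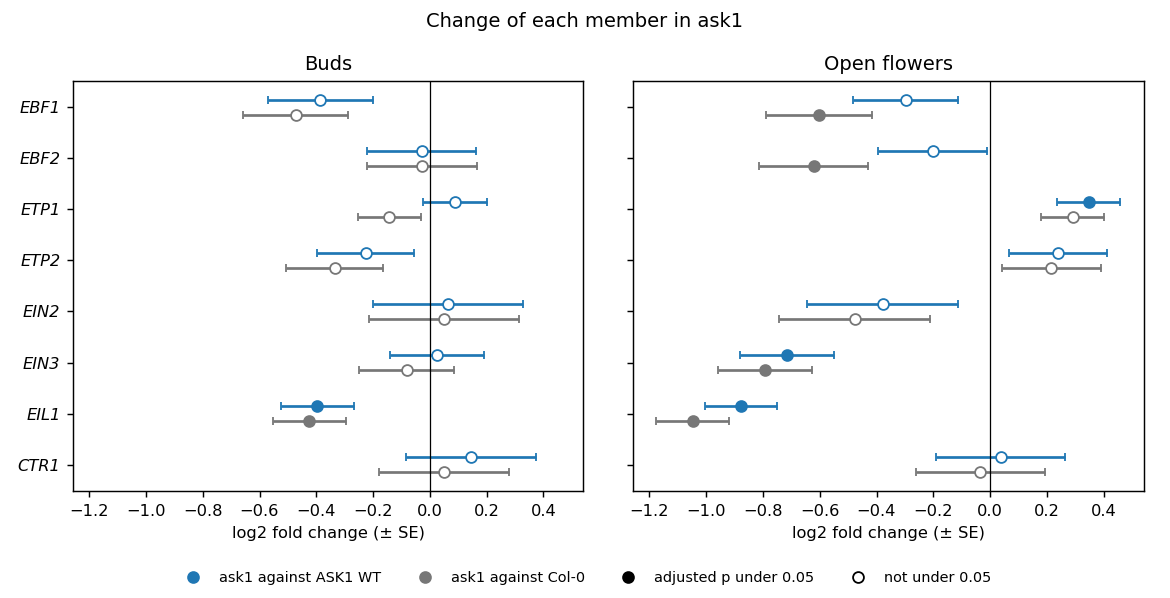
log2 fold change with its standard error (x axis) of 8 genes in ask1 against ASK1 WT (blue) and against Col-0 (grey), in buds and open flowers; filled points passed at an adjusted p under 0.05, and ERF1 is left out because its bud counts were 0 or 1. EIN3 and EIL1 lie left of 0 in open flowers against both controls, with EIL1 at -0.88 and -1.05.

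EBF1 and EBF2 lie on the minus strands of chromosomes 2 (10847375 to 10850797) and 5 (8794252 to 8797349), in TAIR10.1 coordinates. Their coding sequences were 66.3% identical over 1850 aligned bases, and the longest identical run was 23 nt, shorter than the 150 nt reads. The 300 bases before the annotated start are shown for both and for ERF1, since EIN3 is known to bind the promoters of EBF2 and ERF1 and EBF1 is the paralogue of EBF2. Capitals mark ATGTA on either strand, the core of known EIN3-binding sequences. Read 5′ to 3′ on the gene's strand from the TAIR10.1 genome, the windows are chr2:10850798-10851097 (minus) for EBF1, chr5:8797350-8797649 (minus) for EBF2 and chr3:8295317-8295616 (plus) for ERF1.
EBF1: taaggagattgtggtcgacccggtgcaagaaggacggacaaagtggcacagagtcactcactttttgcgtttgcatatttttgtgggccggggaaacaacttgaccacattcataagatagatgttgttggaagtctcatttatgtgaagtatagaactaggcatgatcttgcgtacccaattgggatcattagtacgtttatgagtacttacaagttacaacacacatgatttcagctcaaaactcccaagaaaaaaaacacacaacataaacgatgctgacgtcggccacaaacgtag
EBF2: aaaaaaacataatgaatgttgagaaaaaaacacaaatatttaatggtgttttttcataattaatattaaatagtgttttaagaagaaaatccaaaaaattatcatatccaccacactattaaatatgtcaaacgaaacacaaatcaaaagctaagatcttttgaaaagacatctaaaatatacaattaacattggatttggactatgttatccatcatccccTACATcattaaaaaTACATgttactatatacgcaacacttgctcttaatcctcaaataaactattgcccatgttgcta
ERF1: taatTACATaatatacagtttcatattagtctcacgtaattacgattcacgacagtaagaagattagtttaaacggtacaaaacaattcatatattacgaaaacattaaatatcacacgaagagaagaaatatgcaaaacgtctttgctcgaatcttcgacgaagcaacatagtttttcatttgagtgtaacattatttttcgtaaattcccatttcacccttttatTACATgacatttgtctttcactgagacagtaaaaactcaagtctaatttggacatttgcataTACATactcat
EBF2 held 2 matches, which begin 78 and 64 bases before the start, ERF1 held 3, at 296, 73 and 11 bases, and EBF1 held none. Of the other members, EIN2 and EIN3 held 3 each, ETP2 held 1, and ETP1, EIL1 and CTR1 held none. The motif is common, with a match in 57.6% of 32817 windows of this length. A match is a description of the letters, and no match says only that they are not in this window.

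EBF1, known as the more constitutively transcribed gene of the pair, read 119.6 and 139 CPM in ask1 buds, against 168 and 171 CPM for ASK1 WT and 182 and 177 CPM for Col-0. Both ask1 libraries were below all 4 controls, as were 32.1% of all tested genes in buds, but neither test passed (log2 fold change -0.39 ± 0.19 SE, adjusted p = 0.160 against ASK1 WT, and -0.47 ± 0.19, adjusted p = 0.100 against Col-0, edgeR). In open flowers EBF1 read 99.8 and 155 CPM in ask1, 149 and 165 CPM in ASK1 WT and 191 and 197 CPM in Col-0. The ask1 libraries overlapped ASK1 WT and lay below Col-0, and EBF1 fell 1.52-fold against Col-0 (log2 -0.60 ± 0.19, adjusted p = 0.0352, edgeR) with -0.30 ± 0.18 against ASK1 WT (adjusted p = 0.249). Without ask1 open-flower replicate 1, the low library, the log2 fold changes were -0.38 against Col-0 and -0.06 against ASK1 WT. The call against Col-0 was lost without either bud library of ASK1 WT, ASK1 WT open-flower replicate 1 or any of the 4 Col-0 libraries, and when only the libraries compared were fitted.

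EBF2, whose transcription is known to be raised by EIN3 as a feedback, was level in buds, at 59.7 and 60.5 CPM in ask1, 61.6 and 61.02 CPM in ASK1 WT and 61.8 and 60.6 CPM in Col-0. Both ask1 values were below the 4 controls by very little, and the log2 fold change was -0.03 ± 0.19 against either (adjusted p = 0.943 and 0.951, edgeR). In open flowers it read 102 and 160 CPM in ask1, 133 and 168 CPM in ASK1 WT and 199.9 and 203 CPM in Col-0. The ask1 libraries overlapped ASK1 WT and lay below Col-0. EBF2 fell 1.54-fold against Col-0 (log2 -0.62 ± 0.19, adjusted p = 0.0350, edgeR), and was -0.20 ± 0.19 against ASK1 WT (adjusted p = 0.446). With ask1 open-flower replicate 1 left out these were -0.39 and 0.04. The fall was not called without either ASK1 WT bud library or any of the 4 Col-0 libraries, or with only the libraries compared. ASK1 WT itself stood below Col-0 in open flowers by -0.42 ± 0.19 for EBF2 and -0.31 ± 0.18 for EBF1, and neither passed (adjusted p = 1 for each).

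EBF2 shares 533 bases with AT5G25340 on the opposite strand, and the strand setting of the counting is not given in the sources used here, so reads of the shared stretch cannot be told apart. AT5G25340, which was singled out after its values were seen, read 0.164 and 0.677 CPM in ask1 buds against 8.34 to 14.2 CPM in control buds. It read 14.0 and 12.01 CPM in ask1 open flowers against 82.4 to 96.2 CPM in control open flowers. It therefore moved in the same direction as EBF2 between tissues and, in open flowers, against Col-0 (log2 -2.87 ± 0.20, adjusted p = 4.79e-06, edgeR), and its part in the EBF2 values was not tested. In buds it fell against ASK1 WT (log2 -5.04) while EBF2 lay at -0.03.

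ETP1 and ETP2 lie on the plus strand of chromosome 3 (6546200 to 6548092 and 6521569 to 6523061), with coding sequences 72.9% identical. ETP1 read 43.8 and 46.0 CPM in ask1 open flowers, 36.0 and 34.5 CPM in ASK1 WT and 37.7 and 35.7 CPM in Col-0. Both ask1 libraries were above all 4 controls, as were 25.3% of all tested genes, and the difference passed against ASK1 WT (log2 0.35 ± 0.11, 1.27-fold, adjusted p = 0.0373, edgeR) and not against Col-0 (0.29 ± 0.11, adjusted p = 0.0772). That rise was lost without any 1 of the 8 control libraries, and with DESeq2 or its size factors, with no filter on low counts and with only the libraries compared. In buds ETP1 read 36.9 to 45.6 CPM over all 6 libraries, and the groups overlapped. ETP2 read 10.6 and 9.19 CPM in ask1 open flowers against 7.82 to 8.91 CPM in the controls, also without overlap, but at 0.24 ± 0.17 against ASK1 WT it did not pass (adjusted p = 0.320). In buds ETP2 read 10.69 and 8.26 CPM in ask1 against 10.65 to 12.9 CPM in the controls, which overlapped.

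EIN2 (chromosome 5, 787428 to 793404, plus strand), the membrane protein through which all ethylene signalling is known to pass, read 121.5 CPM in both ask1 bud libraries against 116 to 118 CPM in control buds. The ask1 libraries lay just above the controls (log2 0.06 ± 0.26 against ASK1 WT, adjusted p = 0.901, edgeR). In open flowers EIN2 read 64.4 and 139 CPM in ask1, 123 and 141 CPM in ASK1 WT and 135 and 149 CPM in Col-0. The ask1 libraries were 2 very different values, of which replicate 2 lay within the controls, and no test passed (-0.38 ± 0.27 against ASK1 WT, adjusted p = 0.304). With replicate 1 alone left as the ask1 open-flower library, EIN2 was at -1.04 (adjusted p = 2.2e-06), and with replicate 2 alone at 0.02 (adjusted p = 0.906). A lone library is then assumed to vary like the other groups.

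CTR1 (chromosome 5, 974360 to 979849, minus strand), the kinase that represses EIN2, showed the same split. It read 69 and 131 CPM in ask1 open flowers, 96.5 and 98.7 CPM in ASK1 WT and 100 and 105 CPM in Col-0, so replicate 1 was below and replicate 2 above all controls. The log2 fold change was 0.04 ± 0.23 against ASK1 WT and -0.03 ± 0.23 against Col-0 (adjusted p = 0.925 and 0.936, edgeR). Without replicate 1 it was 0.38 (adjusted p = 0.00355) and 0.30 (adjusted p = 0.0164), and without replicate 2 it was -0.50 against ASK1 WT (adjusted p = 0.000328), so its direction rested on which ask1 library was kept. In buds CTR1 read 89.0 and 84.1 CPM in ask1 against 75.6 to 84.9 CPM, with overlap.

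EIN3 (chromosome 3, 7260429 to 7263384, minus strand) encodes the main transcription factor of the pathway and the target of EBF1 and EBF2. In open flowers it read 144 and 212 CPM in ask1, 292 CPM in both ASK1 WT libraries and 304 and 313 CPM in Col-0. Both ask1 libraries were below every control, as were 24.5% of all tested genes in open flowers. EIN3 fell 1.64-fold against ASK1 WT (log2 -0.71 ± 0.17, adjusted p = 0.00889, edgeR) and 1.73-fold against Col-0 (-0.79 ± 0.17, adjusted p = 0.00609). Without ask1 open-flower replicate 1 the falls were smaller, at -0.52 and -0.60. The call against ASK1 WT was lost without ASK1 WT open-flower replicate 1 (-0.72, adjusted p = 0.0551), and both were lost with only the libraries compared. In buds EIN3 read 153 and 155 CPM in ask1, 149.6 and 153 CPM in ASK1 WT and 169 and 157 CPM in Col-0, with overlapping groups (0.02 ± 0.17 against ASK1 WT, adjusted p = 0.944).

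EIL1 (chromosome 2, 11545656 to 11548293, plus strand) is the closest relative of EIN3 and acts beside it. Its coding sequence was 82.3% identical to that of EIN3 over 1701 bases, with a longest identical run of 68 nt, shorter than a read. In open flowers EIL1 read 31.9 and 37.6 CPM in ask1, 63.5 and 64.2 CPM in ASK1 WT and 74.0 and 69.6 CPM in Col-0. Both ask1 libraries lay well below all controls. EIL1 fell 1.84-fold against ASK1 WT (log2 -0.88 ± 0.13, adjusted p = 0.000552, edgeR) and 2.07-fold against Col-0 (-1.05 ± 0.13, adjusted p = 0.000201), and both falls passed without any 1 of the 12 libraries. They were -0.82 and -0.99 with ask1 open-flower replicate 1 left out.

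In buds EIL1 read 25.2 and 30.1 CPM in ask1, 37.3 and 35.5 CPM in ASK1 WT and 38.7 and 35.4 CPM in Col-0, again with every ask1 value below the controls. The falls there were 1.32-fold (log2 -0.40 ± 0.13, adjusted p = 0.0439, edgeR) and 1.34-fold (-0.42 ± 0.13, adjusted p = 0.0387). They passed without ask1 bud replicate 2 or either ask1 open-flower library and were lost without any 1 of the other 9 libraries. With no filter on low counts both were lost, and the one against ASK1 WT was also lost with DESeq2 or its size factors. Of all tested genes, 12.6% fell against both controls in buds and 12.8% in open flowers. EIL1 was in both sets and EIN3 in the open-flower set. None of the 9 rose against both controls, as 5.62% of all genes did in buds and 10.5% in open flowers.

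ERF1 (chromosome 3, 8295617 to 8296604, plus strand), a transcription factor gene switched on by EIN3, had few counts. Its reads in buds numbered 0 and 1 for ask1, 0 and 0 for ASK1 WT and 0 and 1 for Col-0, which is at or under the limit of 3 counts that a count of 0 allows, and no fold is given for buds. In open flowers it had 11 and 7 reads in ask1, 13 and 17 in ASK1 WT and 17 and 26 in Col-0, or 0.707 and 0.412, 0.585 and 0.992, and 1.03 and 1.61 CPM. The ask1 libraries overlapped ASK1 WT and lay below Col-0. The fitted log2 fold changes were -0.47 ± 0.57 against ASK1 WT (adjusted p = 0.562, edgeR) and -1.24 ± 0.55 against Col-0 (adjusted p = 0.122). As a ratio of counts, Col-0 was 2.24 times ask1 (exact 95% interval 1.27 to 4.13) and ASK1 WT was 1.32 times ask1 (0.711 to 2.51), intervals that cover counting error only.

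Between the controls none of the 9 genes passed in either tissue, where 0.320% of all genes passed in buds and 0.0411% in open flowers. None reached an unadjusted p under 0.05 in edgeR, and DESeq2 and limma-voom called 0 in each tissue as well. In open flowers EBF1 was called lower in ASK1 WT than in Col-0 when only the libraries compared were fitted (log2 -0.30, adjusted p = 0.0286). EBF1 (-0.31, adjusted p = 0.0465) and EBF2 (-0.43, adjusted p = 0.0431) were called there with ask1 bud replicate 2 and ask1 open-flower replicate 1 both left out.

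The second question was how the genes change from buds to open flowers, and in which genotypes. In Col-0, EBF2, EIN3 and EIL1 rose and ETP2 fell, where 35.8% of all genes passed (18.8% higher and 17.1% lower). In ASK1 WT the rises were of EBF2, EIN3 and EIL1, where 35.3% of all genes passed (18.4% higher and 16.9% lower). In ask1 the rise was of EBF2, where 37.7% passed (22.2% higher and 15.5% lower). ERF1 is left out of these counts because its selection fixed its difference between tissues.

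**Figure D3:**
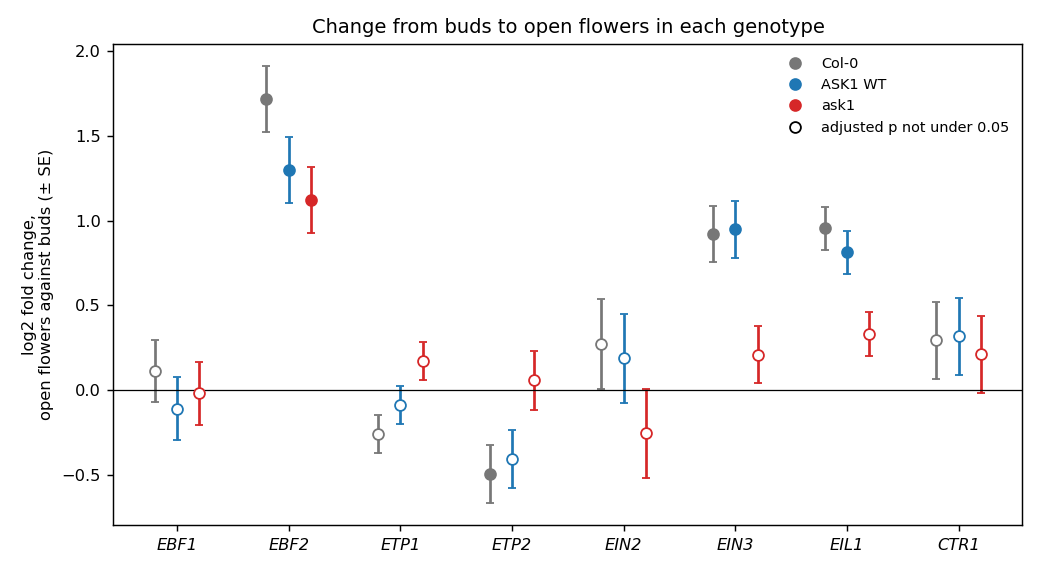
log2 fold change from buds to open flowers with its standard error (y axis) for 8 genes in Col-0 (grey), ASK1 WT (blue) and ask1 (red); filled points passed at an adjusted p under 0.05, and ERF1 is left out because its bud counts were 0 or 1. EBF2 rises in all 3 genotypes (1.72, 1.30 and 1.12), and the EIN3 and EIL1 points of ask1 lie below those of the controls.

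EBF2 rose 3.29-fold in Col-0 (log2 1.72 ± 0.20, adjusted p = 5.11e-05, edgeR), 2.46-fold in ASK1 WT (1.30 ± 0.19, adjusted p = 0.000371) and 2.18-fold in ask1 (1.12 ± 0.19, adjusted p = 0.00106), and every open-flower library exceeded every bud library. The ask1 call was lost with only the libraries compared (1.06, adjusted p = 0.0592). The opposite-strand gene AT5G25340 rose in the same 3 comparisons, by 3.38, 2.71 and 5.01 on the log2 scale. EBF1 did not pass in any genotype (0.11 ± 0.18 in Col-0, -0.11 ± 0.18 in ASK1 WT and -0.02 ± 0.19 in ask1). In control libraries EBF2 thus went from 20.7 to 21.1 FPKM in buds to 45.5 to 69.2 FPKM in open flowers, while EBF1 went from 54.9 to 59.6 FPKM to 48.7 to 64.4 FPKM.

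EIN3 rose 1.89-fold in Col-0 (log2 0.92 ± 0.17, adjusted p = 0.00129, edgeR) and 1.93-fold in ASK1 WT (0.95 ± 0.17, adjusted p = 0.0011), and was 0.21 ± 0.17 in ask1 (adjusted p = 0.343). EIL1 rose 1.94-fold in Col-0 (0.95 ± 0.13, adjusted p = 0.00015) and 1.76-fold in ASK1 WT (0.81 ± 0.13, adjusted p = 0.000487), and was 0.33 ± 0.13 in ask1 (adjusted p = 0.0664). Without ask1 open-flower replicate 1 the ask1 values passed, at 0.42 for EIN3 (adjusted p = 0.000825) and 0.40 for EIL1 (adjusted p = 0.0112), still under those of the controls. CTR1 then also passed in ask1, at 0.56.

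As a description, with no test, the ratio of ERF1 counts per library size between open flowers and buds was 42.5 in Col-0 (exact 95% interval 7.23 to 1720) and 17 in ask1 (2.69 to 710), each resting on 1 read in buds. ASK1 WT had 0 reads in buds, and its level was at least 8.2-fold higher in open flowers, against 3 counts over the group. ETP2 fell 1.41-fold in Col-0 (log2 -0.49 ± 0.17, adjusted p = 0.0447, edgeR), a call lost without any 1 of the 8 control libraries, and was -0.41 ± 0.17 in ASK1 WT (adjusted p = 0.0902) and 0.06 ± 0.17 in ask1. ETP1, EIN2 and CTR1 did not pass in any genotype, with log2 fold changes of -0.26 to 0.32.

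The difference between tissues in the ask1 effect against ASK1 WT was tested directly. None of the 9 passed in the fit of all 12 libraries, beside 6.82% of all genes (4.45% higher and 2.36% lower). Of the 9, 2 had an unadjusted p under 0.05. These were EIN3 (-0.74 ± 0.23, adjusted p = 0.0856, edgeR) and EIL1 (-0.48 ± 0.18, adjusted p = 0.133), whose ask1 effect was lower in open flowers. DESeq2 called 1 of them, EIN3. Without ask1 open-flower replicate 1, the differences were -0.59 for EIN3 and -0.47 for EIL1, and whether each was called depended on the libraries kept. EBF1 and EBF2 had differences of 0.09 ± 0.26 and -0.17 ± 0.27.

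Other genes of the pathway were taken from 5 lists with 61 genes, of which 51 passed the filter. Of the 51, 12 rose and 3 fell in ask1 buds against ASK1 WT, beside 8.84% higher and 17.0% lower over all genes. In open flowers 3 rose and 12 fell, beside 14.1% and 15.9%. Against Col-0, 10 rose and 3 fell in buds, beside 7.04% and 14.1%, and 4 rose and 14 fell in open flowers, beside 12.9% and 14.3%. These counts hold a few genes with low counts that reached the filter's cutoff only through the condition where they were high. Such calls support nothing, and they were ACS11 in buds against ASK1 WT, ACS4 in buds against Col-0, and EIL2 and ORA59 in open flowers against both controls. The median log2 fold change against ASK1 WT was 0.25 in buds and -0.19 in open flowers, beside -0.05 and 0.01 over all genes.

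Among 11 ethylene receptors and their partners, 1 rose in buds against ASK1 WT, beside 8.84% of all genes higher, and 1 against Col-0, beside 7.04%. These were different genes. ETR2 rose against ASK1 WT (log2 0.56) and did not pass against Col-0 (0.32). ARL rose against Col-0 (0.86) and did not pass against ASK1 WT (0.05). In open flowers 4 fell against ASK1 WT and 5 against Col-0, beside 15.9% and 14.3% of all genes lower. RAN1, the copper transporter that supplies the receptors with their metal, read 85.8 and 147 CPM in ask1 open flowers against 214 to 258 CPM in the controls. It fell by 0.95 ± 0.21 and 1.15 ± 0.21 on the log2 scale (adjusted p = 0.00614 and 0.00255, edgeR). The receptor genes ETR2 and ERS2 fell by 0.47 and 0.48 against ASK1 WT and by 0.83 and 0.84 against Col-0. OSR1 fell by 1.68 and 1.43, with reads that an opposite-strand gene may share. Without ask1 open-flower replicate 1, RAN1 stood at -0.67 against ASK1 WT and -0.88 against Col-0 on the log2 scale, and OSR1 at -2.83 and -2.58. RAN1 against ASK1 WT was lost without ASK1 WT open-flower replicate 1 (adjusted p = 0.0515), and ETR2, ERS2 and OSR1 without its replicate 2. The fall of ETR2 was also lost without 8 other libraries, and that of OSR1 against Col-0 without 5.

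Of 14 tested biosynthesis genes, 1 rose and 3 fell in buds against ASK1 WT, beside 8.84% of all genes higher and 17.0% lower, and 2 rose and 3 fell against Col-0, beside 7.04% and 14.1%. In open flowers none rose and 4 fell against ASK1 WT, beside 14.1% and 15.9%, and 2 rose and 4 fell against Col-0, beside 12.9% and 14.3%. With so few genes these counts are close to the shares over all genes. ACS2, an ACC synthase gene of the committed step, read 0.927 and 0.881 CPM in ask1 buds against 0.224 to 0.414 CPM in the controls, and 2.38 and 2.36 CPM in ask1 open flowers against 9.47 to 14.4 CPM. It rose in buds (log2 1.26 ± 0.38 and 1.82 ± 0.40 against the controls) and fell in open flowers (-2.50 ± 0.22, adjusted p = 2.23e-05, and -2.25 ± 0.22, adjusted p = 4.84e-05, edgeR). The bud call against ASK1 WT was lost without any 1 of the 4 libraries compared. Bud libraries held 5 and 8 reads of ACS2 in ASK1 WT and 5 and 4 in Col-0, near the limit of 3 counts that a count of 0 allows. The size of the ACS2 rise in buds is therefore uncertain. ACS6 fell in open flowers by 1.77 and 2.31, and both calls were lost without either ask1 open-flower library. ETO1, which targets some ACC synthases for degradation, fell by 0.82 and 0.75 in buds and by 1.36 and 1.61 in open flowers. Its bud calls were lost without each of 7 libraries (against ASK1 WT) and each of 10 (against Col-0). Without ask1 open-flower replicate 1, ETO1 in open flowers stood at -1.02 against ASK1 WT and -1.28 against Col-0 on the log2 scale, and ACS2 at -2.56 and -2.32. XBAT32, a ubiquitin ligase of ACC synthases, fell by 0.82 and 0.61 in buds and by 0.51 in open flowers against either control, and its calls against Col-0 were lost without replicate 1 of the Col-0 tissue compared. Of 5 other EIN3 family members and regulators tested, none passed in buds, and EIL2 was the only call in open flowers, against both controls. EIL2 reached 10 reads only in control open flowers, with 28 and 22 reads in ASK1 WT and 15 and 20 in Col-0, against 3 and 3 in ask1. It passed the filter through those libraries alone, so its values are a description and no fold is given.

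Among 15 targets and response factors, 9 rose and 0 fell in buds against ASK1 WT, beside 8.84% of all genes higher. Against Col-0, 7 rose and 0 fell, beside 7.04% higher. The 19 listed genes summed to 111 CPM in ask1 bud replicate 1 and 253 CPM in replicate 2, against 68.4 to 79.3 CPM in control buds. The 2 ask1 bud libraries thus differed widely over this list. In open flowers there were 3 rises and 1 fall against ASK1 WT, beside 14.1% higher and 15.9% lower, and 2 rises and 2 falls against Col-0, beside 12.9% and 14.3%, which is near the shares over all genes. PR4, a defence gene induced by ethylene, read 3.93 and 3.05 CPM in ask1 buds against 0.195 to 0.673 CPM in the controls. PR4 rose there (log2 3.89 ± 0.46 against ASK1 WT, adjusted p = 0.000119, edgeR) and in open flowers (1.35 ± 0.25, adjusted p = 0.00273). Its bud libraries of ASK1 WT held 3 and 5 reads, near the limit of 3 counts that a count of 0 allows. The size of that bud rise is therefore uncertain, and against Col-0 it was 2.63. The transcription factor genes ERF2, ERF104 and ERF6 rose in buds by 3.03, 3.02 and 2.37 against ASK1 WT. They differed widely between the ask1 bud libraries, with 4.31 and 20.6 CPM for ERF104 and 3.60 and 17.6 CPM for ERF6. Without ask1 bud replicate 2 they stood at 2.13, 1.51 and 0.83, ERF6 no longer passed, and fewer of the 15 rose. The share of all genes higher in that fit is not given here. ERF6 against ASK1 WT was also lost without 4 other libraries, and ERF104 without ASK1 WT bud replicate 1, or against Col-0 without Col-0 bud replicate 2. In open flowers ORE1, a senescence regulator, fell by 0.87 and 0.93. ORA59, counted among the rises there, had 23 and 31 reads in ask1, 0 and 5 in ASK1 WT and 4 and 8 in Col-0. It reached 10 reads only in ask1 libraries and so passed the filter only through the genotype where it was high, and its call is given no weight. ORE1 was lost against ASK1 WT without its open-flower replicate 2 and against Col-0 without Col-0 open-flower replicate 1, and the PR4 rise in open flowers against Col-0 (1.31) without either Col-0 open-flower library. ERF1 in ask1 buds stayed at 0 and 1 reads.

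Of 6 floral abscission genes, 1 rose in buds against ASK1 WT and none against Col-0, beside 8.84% and 7.04% of all genes higher. In open flowers 2 fell against either control, beside 15.9% (ASK1 WT) and 14.3% (Col-0) of all genes lower. HAE, a receptor kinase required for floral organ abscission, read 35.0 and 60.9 CPM in ask1 open flowers against 98.2 to 141 CPM in the controls, without overlap, and fell by 1.38 and 1.08, the latter lost without Col-0 open-flower replicate 1. QRT2, a polygalacturonase gene, fell by 3.41 and 2.89, from 2.43 and 2.98 CPM in ASK1 WT to 0.257 and 0.236 CPM in ask1, and overlaps an opposite-strand gene.

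**Figure D4:**
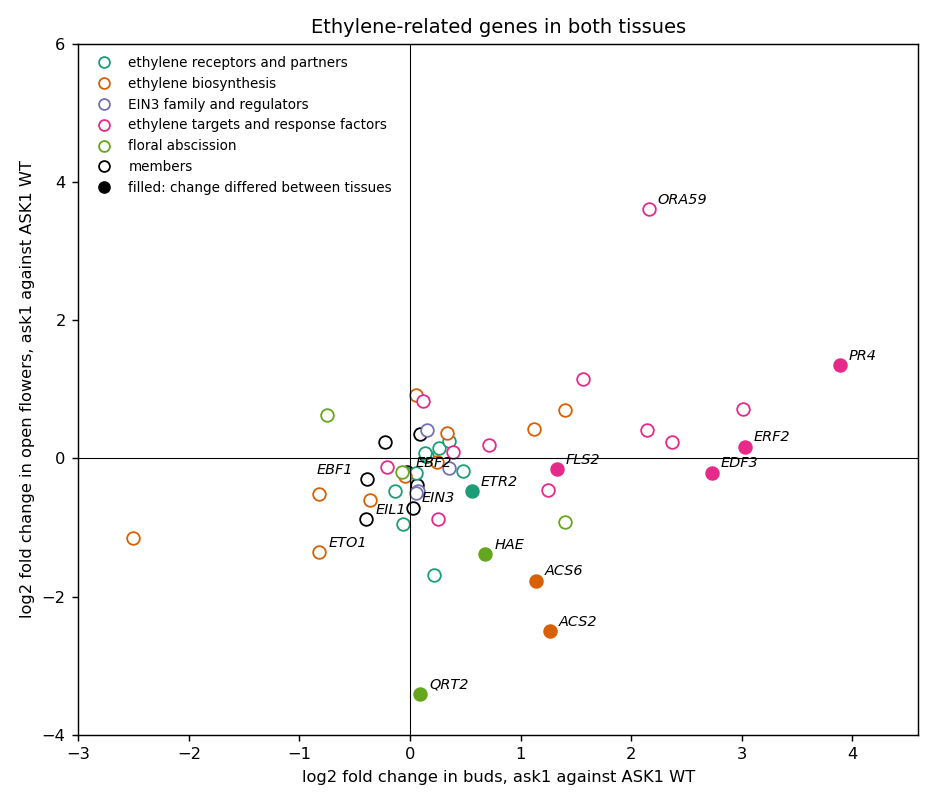
log2 fold change in ask1 against ASK1 WT in buds (x axis) and open flowers (y axis) for 55 tested ethylene-related genes coloured by list; 5 genes with at most 3 counts in a group are left out, and filled points differed between tissues at an adjusted p under 0.05. PR4, ERF2 and EDF3 lie far right and ACS2 lies right of and below 0, while EIN3 and EIL1 lie near 0 or slightly left of it in buds and below 0 in open flowers.

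The genes whose log2 CPM was most like that of EBF1, EBF2 and EIN3 over the 12 libraries were named from all tested genes with a symbol. For EBF1 these were EXO70A1, ACA2 and SUO (Pearson r = 0.908, 0.908 and 0.904). For EBF2 they were YSL1 (0.99), the abscission receptor kinase HSL2 (0.982) and SPS1F (0.98), and for EIN3 they were RAN1 (0.994), CAT2 (0.989) and CHX10 (0.979). All points share the 6 groups and their tissue difference, so these values are a description of the libraries.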

How the data were processed

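RNA-seq of 12 libraries was deposited as read counts per gene, 1 table per library, made by the authors with Trimmomatic, TopHat2 and HTSeq on TAIR10, per the submitters' processing notes; versions, settings and the counting strand are not given in the sources used here. Lines for reads outside genes (7.60% to 9.71% of a library) stayed out of library sizes and tests. Of 33602 genes, 32835 were found in the TAIR10.1 annotation, which gave names, positions and exon lengths.

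The counts were analysed with R 4.3.3, edgeR 4.0.16, limma 3.58.1, DESeq2 1.42.0, Python 3.11.15 and matplotlib 3.10.9. Genes were kept by edgeR's filter (minimum count 10, minimum total 15), which left 21890, scaled by TMM and fitted with 1 mean per group over all 12 libraries (6 residual degrees of freedom). Contrasts were tested by edgeR's robust quasi-likelihood F-test, adjusted by Benjamini-Hochberg and called under 0.05. A standard error is the log2 fold change divided by the square root of F. CPM are TMM-scaled over tested genes, and FPKM divides them by kilobases of exon. The 3 counts that a count of 0 allows were 0.128 to 0.218 CPM per library. Likeness used log2 CPM with a prior count of 2.

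Alternatives were DESeq2's size factors (RLE), DESeq2, limma-voom, no low-count filter, only the libraries compared, removal of each library's trend on exon length (lowess span 0.3), a 2-fold minimum, each library left out in turn, and ask1 bud replicate 2 and ask1 open-flower replicate 1 left out together. The fit was tested on simulated data. Replicate numbers follow deposition order.

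All 9 members are named. From each other list, up to 4 genes per tissue are named, those called alike against each control with the largest smaller change; ASK1, ASK2, CUL1 and the 3 genes most like EBF1, EBF2 and EIN3 are named too. EDF3 and FLS2 are named for a difference between tissues, and RBX1, AP1, AP3, PI, GRP17, EXL4, EXL6, ARL, ACS4 and ACS11 after their values were seen. The members and lists were chosen with earlier results of these data known.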

Additional observations from a re-analysis of the deposited data

Results flagged for a closer look

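Outside the 9 genes described above, 51 ethylene-related genes were tested for a difference between tissues in the ask1 effect against ASK1 WT. Of the 51, 9 passed (edgeR's quasi-likelihood test, Benjamini-Hochberg adjusted), where 6.82% of all genes passed (4.45% higher and 2.36% lower). All 9 that passed had a lower ask1 effect in open flowers than in buds. The differences on the log2 scale were -3.76 for ACS2 (adjusted p = 0.00147), -3.51 for QRT2 (0.00897), -2.93 for EDF3 (0.0214), -2.91 for ACS6 (0.0313), -2.86 for ERF2 (0.033), -2.54 for PR4 (0.0246), -2.06 for HAE (0.0123), -1.48 for FLS2 (0.0163) and -1.03 for ETR2 (0.0273). ACS2 and QRT2 passed without any 1 of the 12 libraries. Each of the other 7 lost its call without at least 1 library, ETR2 without ask1 bud replicate 1 (adjusted p = 0.0735) and ERF2 without ask1 bud replicate 2 (adjusted p = 0.0669), for example. QRT2 and FLS2 overlap genes on the opposite strand. The ASK1 WT bud libraries held few reads of ACS2 (5 and 8), EDF3 (8 and 4) and PR4 (3 and 5). The ask1 open-flower libraries held few reads of QRT2 (4 and 4).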

How the results depend on the processing

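Of the 9 genes, the numbers called (ask1 against ASK1 WT in buds 1 and open flowers 3; against Col-0 1 and 4; Col-0, ASK1 WT and ask1 from buds to open flowers 5, 4 and 2, with ERF1 included here and in the stage counts that follow; tissue difference 0; controls 0 and 0) moved as listed below. ERF1 was 1 of the stage calls in each genotype, and its selection fixed that call. The share of all genes called moves with the setting too and is not given beside these counts. The counts below, also those of other ethylene genes, are thus no result about ethylene genes. With RLE or DESeq2 the ASK1 WT bud count was 0, and DESeq2 gave 1 for the tissue difference. With no filter both bud counts were 0. With the length trend removed both bud counts were 2, ask1 from buds to open flowers 5 and the tissue difference 1. With only the libraries compared, bud counts were 2 and 2, open-flower counts 1 and 1, the controls differed in 1 gene in open flowers, and the stage counts were 8, 7 and 0. With a 2-fold minimum the ask1 counts were 0, 0, 0 and 1 and the control stage counts 2 and 2. With ask1 bud replicate 2 and ask1 open-flower replicate 1 out together (both out), counts were 3 and 2 in buds, 2 between controls in open flowers, 8 and 6 for the stage in Col-0 and ask1, and 2 for the tissue difference. Leaving out 1 library gave 0 to 3 and 1 to 7 against ASK1 WT, 0 to 2 and 2 to 6 against Col-0, 4 to 8, 4 to 6 and 1 to 5 for the stage and 0 to 5 for the tissue difference. Other ethylene genes called against ASK1 WT numbered 15 in each tissue, 6 to 24 in buds and 9 to 24 in open flowers with 1 library out, and in open flowers 5 with only the libraries compared and 23 with both out. CTR1 in open flowers was 0.38 against ASK1 WT and 0.30 against Col-0 (also with both out) without ask1 open-flower replicate 1, and -0.50 and -0.57 without replicate 2, and from buds to open flowers in ask1 it was 0.56 and -0.33. EBF1 reversed to 0.33 from buds to open flowers in ask1 with both out. The cause was not tested. Of 1800 single-gene values under alternatives, 1625 kept direction and side of the threshold. Most of the 1800 belong to results that were not called in the main fit, so this share does not describe how stable the calls were. No paired analysis was possible because the labels give no replicate numbers. With 2 libraries a group, small changes passed in some genes and not in others (EIL1 at 1.32-fold passed in buds against ASK1 WT, EBF1 at 1.39-fold did not against Col-0), and ERF1 was limited by its counts.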
